A study of Mus musculus with 24 samples.

Results

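The 8 genes described here are Nfe2l2, which encodes the transcription factor Nrf2, and 7 genes that Nrf2 is known to switch on: Nqo1, Hmox1, Gclc, Gclm, Txnrd1, Srxn1 and G6pdx. They were taken by gene name from the tables of 55469 genes, where each of the 8 matched 1 row in the brain and 1 row in the liver. RNA had been sequenced from the brain and liver of C57BL/6N mice aged 10 weeks and kept on normal chow. The study's animal methods name male mice, while its reporting summary says that the results rest on both sexes. The mice were either wild type (WT) or homozygous for a CRISPR-Cas9 deletion of a phenylalanine tRNA gene. The deleted gene was tRNA-Phe-1-1 in the first line, tRNA-Phe-2-1 in the second and tRNA-Phe-3-1 in the last. Each of the 4 genotypes had 3 replicates (A, B and C) per tissue, 24 samples in all, and the same 3 WT samples of a tissue serve all comparisons with WT in it. The deletions were present in all cells and from conception, each line had been bred from edited embryos made with a single guide, and which part of the brain was taken is not given in the sources used here. The comparisons ask how the RNA levels of the antioxidant genes differed between each line and WT, and between lines.

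Nrf2 is held in the cytoplasm by Keap1, which marks it for breakdown, and oxidants or electrophiles release it. It then enters the nucleus, pairs with a small Maf protein (Maff, Mafg or Mafk) and binds antioxidant response elements in the promoters of genes for glutathione synthesis, thioredoxin reduction, NADPH supply and detoxification. Bach1 competes with it for the same elements. In the liver this programme is known for protection against drugs and toxins, and in the brain it is known mostly from glial cells.

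The core of the antioxidant response element (TGACNNNGC, on either strand) is shown for the members whose promoter windows held it. Nrf2 is known to bind this element, as described above. RefSeq windows on GRCm38.p6, from 250 bases before to 50 after an annotated transcript start, were found for 6 of the 8 genes (8 windows), and 5 of these genes held the core in at least 1 window. Counted by window, 5 of the 8 member windows (62.5%) held it. So did 12.4% of all 32851 windows and 21.9% of the 64 windows of the other pathway genes described below. The AP-1 motif TGANTCA, which can overlap the core, was in 1 member window, 7.81% of all windows and 10.9% of pathway windows, and it overlapped none of the matches shown. Capitals mark the 9 bases of the core as read on the strand of the gene, so that GCNNNGTCA is a core on the opposite strand.
Nfe2l2: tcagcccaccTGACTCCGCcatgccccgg
Gclm: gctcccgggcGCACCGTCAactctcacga
Txnrd1: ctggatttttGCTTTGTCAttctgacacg
G6pdx: aggcgggtcaGCTCAGTCAaagcacacgc
Srxn1: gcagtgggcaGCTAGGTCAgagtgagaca
Coordinates are those of the whole printed stretch with its flanking bases, and distances are counted to the first capital. The match of Nfe2l2 (stretch at chr2:75704885-75704913, minus strand) began 240 bases before the transcript start. Those of Gclm (chr3:122245413-122245441, plus strand), Txnrd1 (chr10:82859104-82859132, plus strand, in 1 of its 3 windows) and G6pdx (chrX:74428919-74428947, minus strand) began 134, 92 and 57 bases before it. That of Srxn1 (chr2:152105542-152105570, plus strand) began 28 bases after the start. A match is a stretch of letters and no proof of binding. The window of Nqo1 held no core, and for Gclc and Hmox1 no window was used here.

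Read depth, recovered from the tables, ranged from 30365760 to 46225360 reads per brain sample and from 32276896 to 51584522 per liver sample, and all 8 genes were far above the filter on low values in both tissues (a mean of at least 10 normalised counts over the 12 samples of a tissue). The lowest single value of a member was 67 reads, for Nqo1 in the brain. All 5 hepatocyte markers were found in every liver group and all 4 neuron markers in every brain group. Presence alone does not check the tissue labels, since the hepatocyte markers also passed the filter on low values in the brain. Genotype could not be checked, as tRNA genes are not among the genes analysed here. In RNA from tissue, fewer cells of a type and less RNA per cell cannot be told apart.

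In the liver, loss of tRNA-Phe-1-1 was accompanied by the largest change among the members, a fall of Gclc to 0.275 of its WT level. Gclm and G6pdx were lower as well and Txnrd1 was higher. These were 4 of the 8 genes at an adjusted p under 0.05, beside 17.3% of the 15856 genes tested in this comparison (8.27% higher and 9.08% lower). The members had a median log2 fold change of -0.45, against -0.01 for all tested genes. For 5 of the 8, all tRNA-Phe-1-1-/- livers lay on one side of all WT livers (4 below and 1 above), as they did for 34.8% of all genes. Fold changes here are on the scale of log2(normalised count + 1), which understates those of low genes. In the livers of the other lines limma called 0 of 8 members, beside 0.132% and 0.883% of all genes. There 2365 (tRNA-Phe-2-1-/-) and 2550 (tRNA-Phe-3-1-/-) genes had an unadjusted p under 0.05, and DESeq2 called 1 member (G6pdx) and 0.

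**Figure D1:**
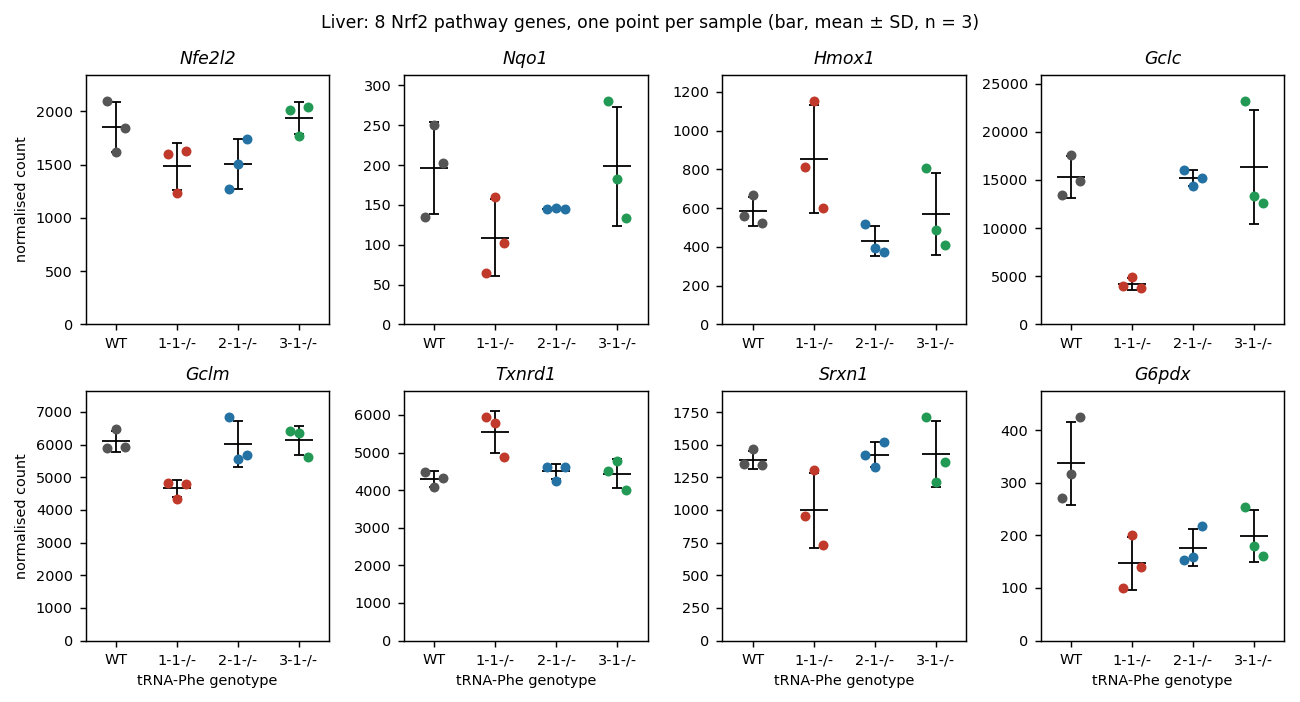
Normalised counts of the 8 genes in the liver (vertical axes, each starting at 0), with one point per sample, genotypes along the horizontal axes and bars for mean ± SD (n = 3). The 3 tRNA-Phe-1-1-/- points for Gclc lie between 3735 and 4904, below all 9 other livers, and the G6pdx points of all lines lie below the WT points.

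Gclc (ENSMUSG00000032350.9, chromosome 9, 77754535 to 77794489 on GRCm38.p6) encodes the catalytic subunit of glutamate-cysteine ligase, which carries out the rate-limiting step of glutathione synthesis. Its normalised counts in tRNA-Phe-1-1-/- livers were 4000, 4904 and 3735 for replicates A, B and C. WT livers had 13396, 17632 and 14847, tRNA-Phe-2-1-/- livers 16043, 14314 and 15183, and tRNA-Phe-3-1-/- livers 23156, 13346 and 12558. The highest tRNA-Phe-1-1-/- value was thus below the lowest of the 9 other livers. The log2 fold change against WT was -1.86 ± 0.20 (SE; limma, adjusted p = 0.000239). Against tRNA-Phe-2-1-/- livers it was -1.86 ± 0.20 (adjusted p = 0.000292) and against tRNA-Phe-3-1-/- livers -1.91 ± 0.20 (adjusted p = 0.000261). In the other lines the 95% interval of the log2 difference from WT ran from -0.45 to 0.44 (tRNA-Phe-2-1-/-) and from -0.39 to 0.49 (tRNA-Phe-3-1-/-). The spread in tRNA-Phe-3-1-/- livers came from replicate A, which had the highest Gclc count of all livers.

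Gclm (ENSMUSG00000028124.15, chromosome 3, 122245487 to 122267215) encodes the modifier subunit of the same enzyme, and its fall was smaller. Counts were 4832, 4347 and 4798 in tRNA-Phe-1-1-/- livers and 5903, 6483 and 5923 in WT livers, so the groups did not overlap. The log2 fold change was -0.39 ± 0.10 (adjusted p = 0.0168). The other lines had 5547 to 6831 and 5610 to 6404, around the WT values, and tRNA-Phe-1-1-/- livers were lower than both (-0.37 ± 0.10, adjusted p = 0.0243, and -0.39 ± 0.10, adjusted p = 0.0175). Against WT the call was lost with quantile normalisation and without WT replicate B (adjusted p up to 0.0647). Each call against another line was kept in 19 of 23 alternative fits and lost with quantile normalisation, with only the groups compared, and without tRNA-Phe-1-1-/- replicate B or replicate A of the other line (adjusted p up to 0.0845 and 0.0693). Over the 12 livers the log2 values of Gclc and Gclm had a Pearson correlation of 0.88, and over the 12 brains it was 0.07. With the mean of each genotype removed it was 0.32 in both tissues.

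**Figure D2:**
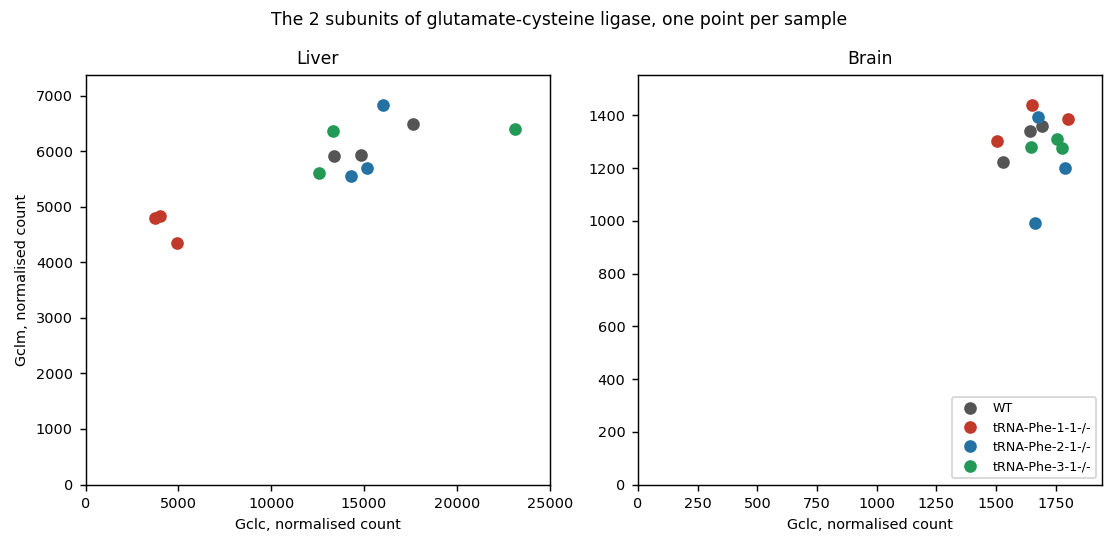
Normalised counts of Gclc (horizontal axes) and Gclm (vertical axes) in each of the 12 livers and 12 brains, coloured by genotype. In the liver the 3 tRNA-Phe-1-1-/- samples stand apart at the lower left, with Gclc at 4904 or less and Gclm at 4832 or less, whereas in the brain the genotypes are mixed.

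G6pdx (ENSMUSG00000031400.10, chromosome X, 74409483 to 74428880) encodes glucose-6-phosphate dehydrogenase, the entry enzyme of the pentose phosphate pathway and a main source of NADPH. Its counts were 271, 316 and 424 in WT livers and 99.7, 201 and 139 in tRNA-Phe-1-1-/- livers, a log2 fold change of -1.23 ± 0.27 (adjusted p = 0.0104, and 0.0517 without WT replicate C, the highest sample). The counts of tRNA-Phe-2-1-/- livers (154, 159 and 217) and tRNA-Phe-3-1-/- livers (254, 179 and 161) also lay below every WT liver. There the differences of -0.92 ± 0.27 (adjusted p = 0.178) and -0.77 ± 0.27 (adjusted p = 0.194) did not pass. All 3 comparisons use the same WT livers. Groups without overlap were as frequent as 25.4% (tRNA-Phe-2-1-/-) and 19.9% (tRNA-Phe-3-1-/-) among all genes. For G6pdx in tRNA-Phe-2-1-/- livers, the adjusted p ranged up to 0.53 over the alternative fits, and DESeq2 called it. The lines themselves did not differ past the threshold in G6pdx, with adjusted p from 0.272 to 0.965. G6pd2, a near-identical retrocopy of G6pdx with which reads could be shared, was at 0.987 normalised counts or less in every sample.

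Txnrd1 (ENSMUSG00000020250.10, chromosome 10, 82833951 to 82897724), the cytosolic thioredoxin reductase, was the member that rose. It had 5933, 5786 and 4895 normalised counts in tRNA-Phe-1-1-/- livers and 4478, 4071 and 4327 in WT livers (0.36 ± 0.09, adjusted p = 0.0211). The groups were apart, although replicate C was close to the other lines, whose livers ranged from 4013 to 4784. The rise against tRNA-Phe-3-1-/- livers passed (0.32 ± 0.09, adjusted p = 0.039) and that against tRNA-Phe-2-1-/- livers did not (0.30 ± 0.09, adjusted p = 0.0511). The former held in 11 of 23 alternative fits, and in 4 of the 12 that left out 1 liver (adjusted p up to 0.14). The call against WT was the least stable of the 4, as it was lost with only the groups compared and without WT replicate B, WT replicate C, tRNA-Phe-1-1-/- replicate A or tRNA-Phe-1-1-/- replicate B, with adjusted p of up to 0.0849.

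Among the members that did not pass against WT, Srxn1 (ENSMUSG00000032802.8, chromosome 2, 152105524 to 152111376), which restores over-oxidised peroxiredoxins, had 953, 1305 and 735 normalised counts in tRNA-Phe-1-1-/- livers. WT livers had 1349, 1464 and 1341, all above these values (-0.51 ± 0.18, adjusted p = 0.0727). Replicate B was close to WT, and without it the adjusted p was 0.00962. The quinone reductase gene Nqo1 (ENSMUSG00000003849.8, chromosome 8, 107388225 to 107403205) had 64.0, 160 and 102 normalised counts against 135, 250 and 202 in WT livers (-0.89 ± 0.35, adjusted p = 0.098, and 0.0341 without tRNA-Phe-1-1-/- replicate B). Its groups overlapped, and the other lines had 145 to 146 and 133 to 280. Srxn1 was at 1327 to 1522 in tRNA-Phe-2-1-/- livers and at 1215 to 1708 in tRNA-Phe-3-1-/- livers.

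Hmox1 (ENSMUSG00000005413.8, chromosome 8, 75093618 to 75100593) encodes haem oxygenase 1, which breaks down haem and is found in the liver largely in macrophages. Its values in tRNA-Phe-1-1-/- livers were uneven, at 812, 1151 and 598 normalised counts, against 560, 668 and 524 in WT livers (0.50 ± 0.27, adjusted p = 0.226). In tRNA-Phe-2-1-/- livers it was below every WT liver, at 518, 395 and 374 (-0.45 ± 0.27, adjusted p = 0.453), and in tRNA-Phe-3-1-/- livers it had 809, 486 and 409. Hmox1 was higher in tRNA-Phe-1-1-/- livers than in those of tRNA-Phe-2-1-/- mice (0.95 ± 0.27, adjusted p = 0.0336), but did not pass without a variance trend or without tRNA-Phe-1-1-/- replicate A or B or tRNA-Phe-2-1-/- replicate B or C (adjusted p up to 0.114). The summed counts of 8 macrophage markers were 9723 to 13529 in tRNA-Phe-1-1-/- livers and 10365 to 11429 in tRNA-Phe-2-1-/- livers, with 2 of 8 markers higher in the former, and their part in the difference was not tested.

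Nfe2l2 itself (ENSMUSG00000015839.6, chromosome 2, 75675513 to 75704663) had 1598, 1233 and 1629 normalised counts in tRNA-Phe-1-1-/- livers and 2095, 1618 and 1848 in WT livers, which overlapped (-0.32 ± 0.14, adjusted p = 0.148). The values of tRNA-Phe-2-1-/- livers were like those (1270, 1506 and 1738) and those of tRNA-Phe-3-1-/- livers were near WT (1768 to 2037). Nrf2 is controlled mostly through its protein, which these data do not measure.

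**Figure D3:**
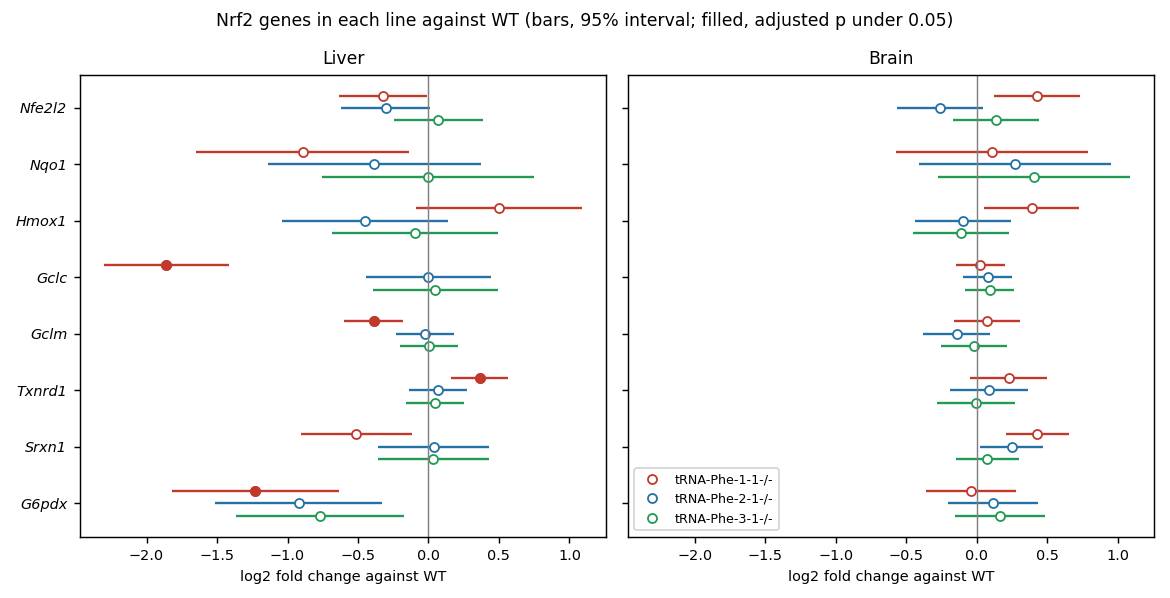
Log2 fold changes against WT (horizontal axes) of the 8 genes in the liver and the brain, with 95% intervals from the limma fit, 1 colour per line and filled points for an adjusted p under 0.05. Filled points occur only for tRNA-Phe-1-1-/- livers (Gclc, Gclm, Txnrd1 and G6pdx), and no interval of Gclc in the other lines reaches beyond 0.49.

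Asked as a difference of any kind among the 4 genotypes (moderated F-test), 3 of 8 members passed in the liver, where 17% of all genes did: Gclc (adjusted p = 0.000347), Gclm (adjusted p = 0.0287) and G6pdx (adjusted p = 0.0355). Txnrd1 narrowly missed the threshold (adjusted p = 0.0509), and the remaining 4 had adjusted p of 0.099 to 0.186. Between lines, the livers of tRNA-Phe-1-1-/- mice differed in 3 of 8 members from those of tRNA-Phe-2-1-/- mice (beside 15.9% of all genes) and in 3 from those of tRNA-Phe-3-1-/- mice (beside 16.1%). For the remaining pair of lines limma called 0 of 8 members and 0% of all genes (1059 genes had an unadjusted p under 0.05), and DESeq2 also called 0 members. In order of mean Gclc level the genotypes were tRNA-Phe-3-1-/- (16353 ± 5904, SD, n = 3), WT (15292 ± 2153), tRNA-Phe-2-1-/- (15180 ± 865) and tRNA-Phe-1-1-/- (4213 ± 613), and the first 3 did not differ beyond their spread. For Gclm the order was the same, at 6127 ± 448, 6103 ± 329, 6022 ± 704 and 4659 ± 271. For G6pdx it was WT (337 ± 78.8), tRNA-Phe-3-1-/- (198 ± 49.2), tRNA-Phe-2-1-/- (176 ± 34.9) and tRNA-Phe-1-1-/- (147 ± 51.0), where neighbours among the lines did not differ beyond their spread.

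Beyond the 8 members, 48 further genes of the pathway were examined, of which 45 were tested in the liver. In tRNA-Phe-1-1-/- livers 2 of these were higher and 15 lower, beside 8.27% and 9.08% of all genes, and the median log2 fold change of the 45 was -0.26. The list was chosen with earlier results of these data known, so these counts and those by role below are descriptions. The higher genes encode small Maf partners of Nrf2. Maff had 186, 141 and 269 normalised counts against 53.7, 46.5 and 89.5 in WT livers (1.65 ± 0.29, adjusted p = 0.003), and Mafk had 565, 514 and 634 against 400, 338 and 494 (0.49 ± 0.14, adjusted p = 0.0362). The call of Maff held in 12 of 12 refits that left out 1 liver and that of Mafk in 7. Of the 12 regulators, Btrc, an adaptor for the breakdown of Nrf2, also passed and was lower (-0.53 ± 0.10, adjusted p = 0.00379), while Keap1 and Bach1 did not pass.

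Of the 13 tested detoxifying enzymes 7 fell and 0 rose, where 9.08% of all genes fell (median log2 fold change -0.76). The glutathione transferase Gstm4 had an adjusted p below that of any other gene of the pathway list, with 428, 560 and 457 normalised counts against 1101, 1201 and 1302 in WT livers (-1.32 ± 0.19, adjusted p = 0.00105). Aldehyde oxidase, encoded by Aox1, had 4782, 3660 and 4005 against 6871, 8452 and 6739 (-0.83 ± 0.13, adjusted p = 0.00145). The largest fold changes of the list were those of the alpha class transferases Gsta1 (20.7, 60.8 and 15.3 against 116, 302 and 215; -2.82 ± 0.63, adjusted p = 0.0111) and Gsta2 (166, 375 and 247 against 520, 1695 and 1514; -2.14 ± 0.46, adjusted p = 0.00945). These 2 were picked out after their values were seen, and since the transferases are a family of similar genes among which reads can be divided, their single values are uncertain.

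NADPH supply was the other role with many falls, at 4 of 5 genes beside the same 9.08%. Idh1, the cytosolic isocitrate dehydrogenase, had 13907, 11530 and 14063 normalised counts in tRNA-Phe-1-1-/- livers and 20913, 19810 and 19242 in WT livers (-0.61 ± 0.09, adjusted p = 0.00116). Pgd, Me1 and Tkt were lower too, of which Tkt was near the threshold (adjusted p = 0.048) and was called in 3 of 12 refits that left out 1 liver, against 9 for Me1. Of 4 tested genes of glutathione synthesis and use other than the members 0 passed, and of 3 genes for thioredoxin and peroxiredoxins 0 passed. The p-values rest on the spread within groups of 3 samples, pooled over all 4 genotypes of the tissue. DESeq2 called 19 of the pathway genes.

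**Figure D4:**
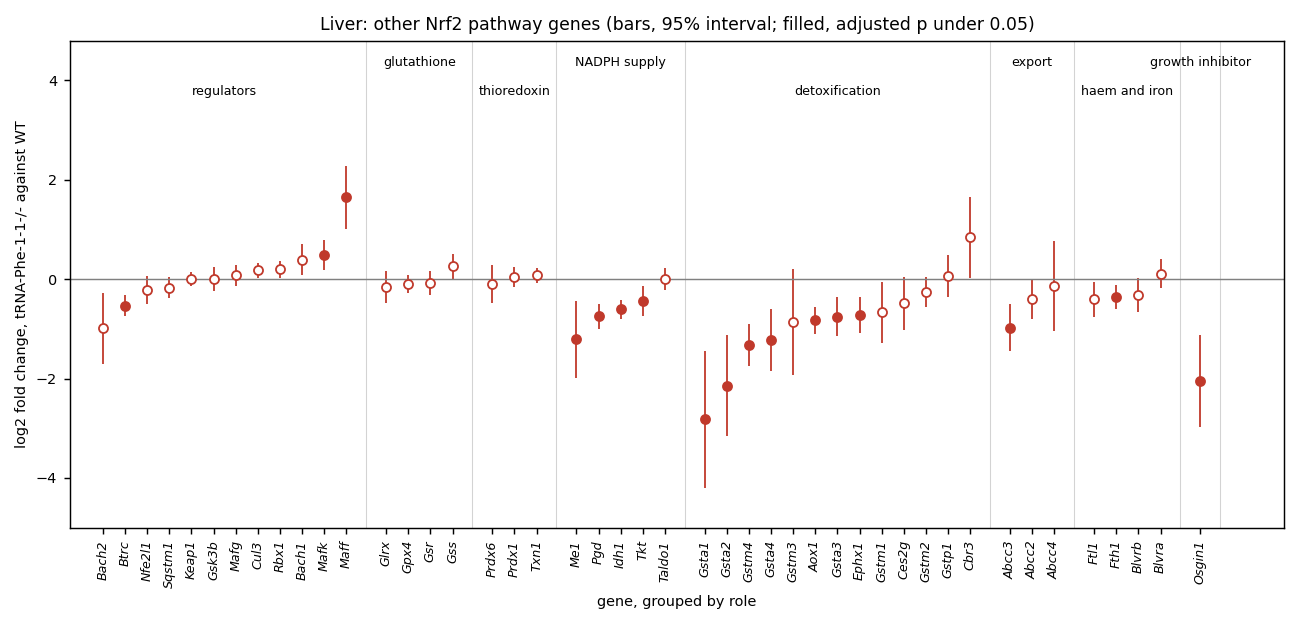
Log2 fold changes of the 45 tested pathway genes in tRNA-Phe-1-1-/- livers against WT (vertical axis), grouped by role along the horizontal axis, with 95% intervals and filled points for an adjusted p under 0.05. The 15 lower calls lie mostly among detoxification (7) and NADPH supply (4), and the 2 higher calls are Maff and Mafk.

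Pgd, which encodes 6-phosphogluconate dehydrogenase, the NADPH-forming step after that of G6pdx, was below WT in all lines. Its counts were 1408, 1155 and 1369 in WT livers, 758, 828 and 744 in tRNA-Phe-1-1-/- livers, 757, 787 and 767 in tRNA-Phe-2-1-/- livers and 916, 675 and 833 in tRNA-Phe-3-1-/- livers. All 9 knockout livers were thus below the 3 WT livers, which all 3 comparisons share. The log2 fold changes were -0.75 ± 0.12 (adjusted p = 0.00166), -0.76 ± 0.12 (adjusted p = 0.035) and -0.70 ± 0.12 (adjusted p = 0.0297). The first call held in each of 12 refits that left out 1 liver, whereas the second held in 4 and the third in 6 of 12. In tRNA-Phe-2-1-/- livers Pgd was the only pathway gene called, beside 0.132% of all genes. In tRNA-Phe-3-1-/- livers, where 0.883% of all genes were called, the glutathione synthetase gene Gss was higher (2618, 2222 and 2218 against 1360, 1534 and 1492; 0.68 ± 0.12, adjusted p = 0.0298), a call that held in 7 of 12 such refits. Among 5 antioxidant genes outside the pathway list (Sod1, Sod2, Cat, Gpx1 and Hmox2), catalase (Cat) was lower in tRNA-Phe-1-1-/- livers (-0.70 ± 0.20, adjusted p = 0.033) and the others did not pass against WT in any line.

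Other features of the tRNA-Phe-1-1-/- livers moved with these genes. Of 6 erythroid markers 5 were lower, and their summed counts of 11571 to 13842 lay below the 19774 to 26049 of WT livers. Of 4 lymphocyte and neutrophil markers, 3 of them tested, 2 were higher, and their sums of 870 to 1551 and 655 to 883 overlapped. The summed counts of the 5 hepatocyte markers overlapped (2077770 to 2671016 and 2569662 to 3233926), with 1 of 5 higher. Those of the 8 macrophage markers overlapped too, with 1 of 8 higher, as did those of the 6 endothelial and stellate markers, with 2 of 6 higher, and of the 4 cholangiocyte markers, with 0 called. None of these markers was at 0 in a group. Of 10 circadian clock genes 5 were higher and 4 lower, among them Dbp with 2232 ± 1204 normalised counts against 54.5 ± 22.4, and 6 of 6 acute phase genes were higher, with a median log2 fold change of 4.42. In the livers of the other lines 0 of these clock and acute phase genes passed against WT. When tRNA-Phe-1-1-/- livers were set against those of tRNA-Phe-2-1-/- mice, 5 of 10 clock genes were higher and 3 lower. In that comparison 6 of 6 acute phase genes were higher and 4 of 6 erythroid markers were lower. Against livers of tRNA-Phe-3-1-/- mice, 2 of 10 clock genes and 6 of 6 acute phase genes were higher, and 6 of 6 erythroid markers were lower. The part of these features in the changes of the Nrf2 genes was not tested.

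Following the naming rule, the liver genes whose log2 values over the 12 samples followed those of a called member most closely were Evi5 and Impg2 for Gclc (Pearson correlation 0.98 and 0.97), Fat4 and a gene without a current symbol for Gclm (0.94 and 0.97), Med21 and Snx3 for Txnrd1 (0.96 and 0.95), and Gramd4 and Bptf for G6pdx (0.93 and 0.93). Among the members, Srxn1 followed Gclc (0.86) and Nqo1 followed G6pdx (0.78), while Txnrd1 and Gclc had a correlation of -0.77. With the mean of each genotype removed these pairs had 0.73, 0.82 and 0.21, so that the direction of the last turned. The other values include the difference between the genotypes, and all are descriptions over 12 samples.

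In the brain no member passed in any comparison, by limma, at 0 of 8 genes each. The background was 1.05% of 19228 genes for tRNA-Phe-1-1-/- against WT and 0% for the other lines, where 1071 (tRNA-Phe-2-1-/-) and 2373 (tRNA-Phe-3-1-/-) genes had an unadjusted p under 0.05. In tRNA-Phe-1-1-/- brains 7 of 8 members had a log2 fold change above 0, as did 49.9% of all genes, with a median of 0.17. DESeq2 called 1 member in these brains (Srxn1), and 3063 genes had an unadjusted p under 0.05 by limma. Srxn1, Nfe2l2 and Hmox1 were above every WT brain there, and 25.2% of all genes had groups without overlap. For the second and the third line this held for 1 (Srxn1) and 0 members, beside 11.4% and 16.4% of all genes. Between lines the called shares of all genes were 0.53%, 2.11% and 0%, and among the 4 genotypes 0.634%.

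Srxn1 had 3269, 3692 and 4304 normalised counts in tRNA-Phe-1-1-/- brains and 3081, 2604 and 2643 in WT brains (0.43 ± 0.10, adjusted p = 0.077, and 0.0461 without tRNA-Phe-1-1-/- replicate A). The tRNA-Phe-2-1-/- brains were also above WT, at 3312, 3236 and 3305 (0.25 ± 0.10, adjusted p = 0.894), and those of tRNA-Phe-3-1-/- mice had 3149, 2780 and 2833. Nfe2l2 had 383, 512 and 450 in tRNA-Phe-1-1-/- brains against 377, 309 and 312 in WT brains (0.43 ± 0.14, adjusted p = 0.166). Its lowest values were those of tRNA-Phe-2-1-/- brains, at 268, 249 and 317, and the difference between these lines was the one nearest the threshold (0.69 ± 0.14, adjusted p = 0.0554). Hmox1 had 140, 127 and 111 against 93.2, 91.9 and 102 (0.39 ± 0.16, adjusted p = 0.245), and the other lines had 78.5 to 106.

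**Figure D5:**
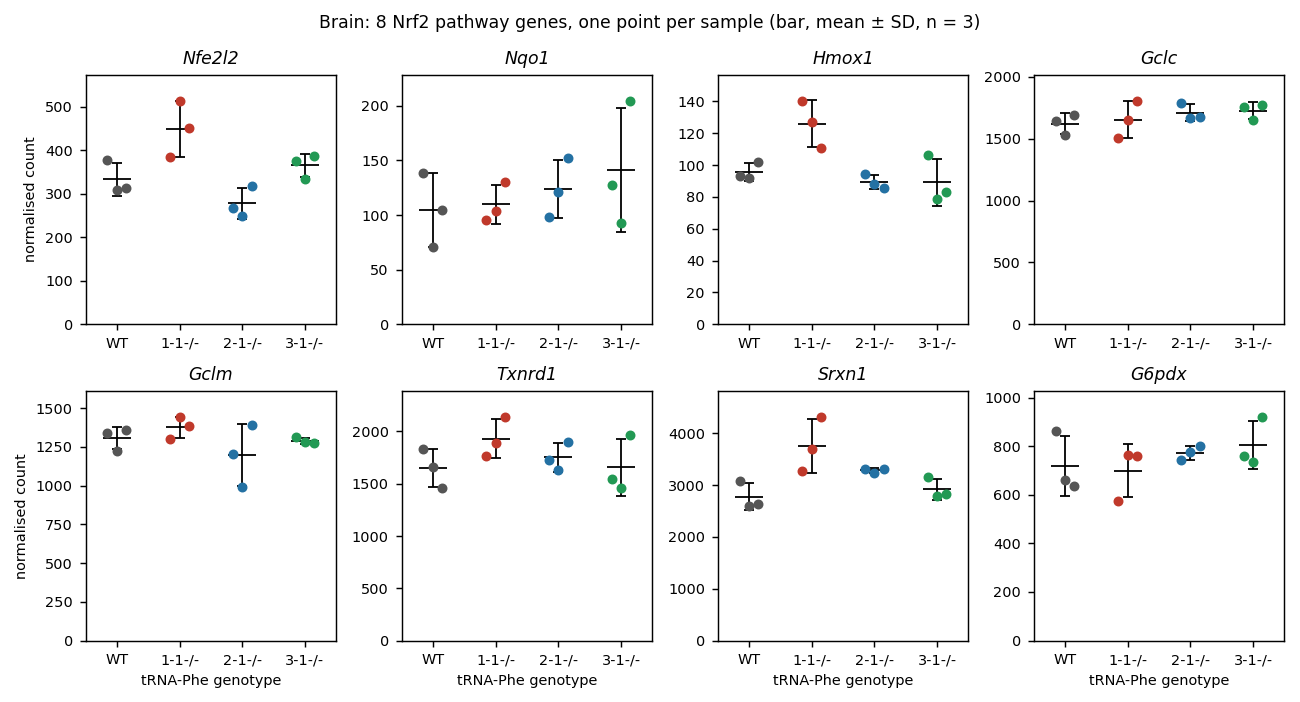
Normalised counts of the 8 genes in the brain (vertical axes, each starting at 0), with one point per sample, genotypes along the horizontal axes and bars for mean ± SD (n = 3). Gclc stays between 1503 and 1802 in all 12 brains, and the tRNA-Phe-1-1-/- points for Srxn1, Nfe2l2 and Hmox1 lie above the WT points, without an adjusted p under 0.05.

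Gclc, the gene that fell most in the liver, was at 1503, 1649 and 1802 normalised counts in tRNA-Phe-1-1-/- brains and at 1641, 1528 and 1691 in WT brains. The 95% interval of its log2 difference, -0.15 to 0.20, leaves out a fall of the size seen in the liver. For Gclm the interval was -0.16 to 0.31, for G6pdx -0.36 to 0.28 and for Txnrd1 -0.05 to 0.50, so small changes of these genes were not detectable with these samples. Nqo1 was the least precise, from 70.8 to 204 normalised counts over the 12 brains and with intervals as wide as -0.57 to 0.79. No test was made between the tissues, which had been normalised separately.

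Of the 48 further pathway genes, 42 were tested in the brain. Against WT only Maff passed, in tRNA-Phe-1-1-/- brains, with 65.3, 70.7 and 71.1 normalised counts against 16.3, 6.34 and 18.1 in WT brains (2.38 ± 0.39, adjusted p = 0.023). The brains of the other lines had 11.3 to 23.6. The call was lost without WT replicate B or C or without tRNA-Phe-1-1-/- replicate B or C. Median log2 fold changes of the list were -0.01, -0.06 and 0.02 in the 3 lines in the order of their names. Summed oligodendrocyte markers were 33496 to 61776 in tRNA-Phe-1-1-/- brains and 87058 to 102597 in WT brains, summed erythroid markers 7629 to 9636 and 15411 to 28325, and summed choroid plexus markers 131 to 164 and 569 to 12732, with 0 of these markers called and none at 0. Neuron, astrocyte, microglia and endothelial sums overlapped between these groups, with 1 of 3 endothelial markers lower. Of the clock genes 2 of 10 were higher there, and of 2 tested acute phase genes 1 was. The part of these cells in the values of the Nrf2 genes was not tested.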

How the data were processed

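Total RNA from brain and liver was sequenced by the authors, who trimmed reads (Trim Galore, cutadapt) and aligned them with STAR to GRCm38.p6. They estimated strand-aware gene counts with Salmon and divided them by 1 DESeq2 size factor per sample, separately for each tissue. The deposited signal values are these normalised counts. All values (100%, tolerance 0.001) were whole multiples of a step, which gave the reads. Deposited tables of log2 fold changes with s-values were not used. Symbols were found for 93.2% of Ensembl IDs. Genes with a mean of at least 10 (19228 in brain, 15856 in liver) were fitted as log2(normalised count + 1) with limma 3.58.1 (R 4.3.3; variance trend, 12 samples per tissue, two-sided, Benjamini-Hochberg over all tested genes, threshold 0.05). edgeR 4.0.16 and DESeq2 1.42.0 were run on the reads. On those, edgeR called 2703 liver genes for tRNA-Phe-1-1-/- against WT. On simulated counts with changes set for tRNA-Phe-1-1-/- against WT, the fit recovered 20 of 67 genes changed 1.5-fold in the brain and 23 of 67 in the liver. At 2-fold it recovered 45 and 44 of 67, and at 4-fold 58 of 66 in each tissue. False calls numbered 6 in each tissue. Changes were set in 66 or 67 genes per fold, far fewer than the 2751 genes called in real tRNA-Phe-1-1-/- livers against WT. The share recovered in the real liver comparison can therefore differ. The methods name separate mice, but samples are not tied to animals, and replicate counts always differed beyond sampling noise. Members and lists were chosen with earlier results of these data known. Named genes were the members, up to 3 pathway genes per direction and comparison by adjusted p, and the 2 genes most correlated with each called member, while others were chosen after their values were seen.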

Additional observations from a re-analysis of the deposited data

Results flagged for a closer look

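Srxn1 was flagged because its tRNA-Phe-1-1-/- and WT groups lay apart in opposite directions in the brain and the liver. In the brain its log2 fold change against WT was 0.431, with every tRNA-Phe-1-1-/- sample above every WT sample, and in the liver it was -0.511, with every tRNA-Phe-1-1-/- sample below every WT sample. This separation is the rule that flagged the gene and lends the difference no support. Groups without overlap in this comparison were found for 25.2% of all genes in the brain and 34.8% in the liver. Neither fold change passed the adjusted threshold, and the difference between the tissues was not tested.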

How the results depend on the processing

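Among 11 other settings and 12 refits that each left out 1 sample of the tissue, Gclc in tRNA-Phe-1-1-/- livers against WT was called in 23 of 23, G6pdx in 22, Gclm in 21 and Txnrd1 in 18, and members called there numbered 3 to 4 over the settings and 2 to 5 over the left-out samples (2 without WT replicate B or C). With 1 sample left out, the members called in tRNA-Phe-1-1-/- brains against WT ranged from 0 to 1, those differing among the 4 genotypes in the liver from 1 (without WT replicate C or tRNA-Phe-1-1-/- replicate A) to 4, and the pathway genes called against WT from 0 to 1 in tRNA-Phe-1-1-/- brains, 12 to 19 in tRNA-Phe-1-1-/- livers, and 0 to 2 in the livers of either other line. DESeq2 called 1 member in tRNA-Phe-1-1-/- brains against WT and against either other line, 2 among the 4 brain genotypes, 1 in tRNA-Phe-2-1-/- livers against WT, 5 in tRNA-Phe-1-1-/- livers against the second line and 5 among the 4 liver genotypes, and 3 pathway genes in tRNA-Phe-1-1-/- brains, 3 in tRNA-Phe-2-1-/- livers and 5 in tRNA-Phe-3-1-/- livers. A mean of at least 50 or quantile normalisation gave 1 member (Nfe2l2) between the brains of the first 2 lines, and the former gave 0 pathway genes in tRNA-Phe-1-1-/- brains. Without a variance trend 1 member (Gclc) differed among the liver genotypes, and 0 pathway genes were called in the livers of the other lines. Fitting only the groups compared gave 0 pathway genes in tRNA-Phe-1-1-/- brains, 2 in tRNA-Phe-2-1-/- livers, 0 in tRNA-Phe-3-1-/- livers and 1 member when tRNA-Phe-1-1-/- livers were set against those of tRNA-Phe-3-1-/- mice. Whether the replicate letters pair the samples could not be settled. Same-letter correlations were -0.164 to 0.492 for brains (median 0.034, and -0.035 for different letters). For livers they were -0.294 to 0.236 (median -0.025, and -0.004 for different letters). On average 8 and 7 of 12 samples were closer to their own letter. With a replicate block the call of Txnrd1 between tRNA-Phe-1-1-/- livers and those of the last line was lost, 4 members were called in tRNA-Phe-1-1-/- livers against WT, and 0 pathway genes in the livers of the other lines. No called member changed sign, while 70 of 2208 values of single members under these settings, past the threshold in neither fit, did. Of 276 counts over all genes, 83 moved by over 1.5 times. The cause of these changes was not tested.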
